A study of Mus musculus with 4 samples.

Results

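The longest autosomal regions of a whole-genome bisulfite sequencing table of mouse CA1 hippocampus were examined. A region is 1 row of the deposited table, with a start, an end and a percent methylation in each library. The 2078 regions described here are the autosomal ones of 10000 bp or more, from the first to the last base, with a value in all 4 libraries. They were chosen by length alone. They make up 0.258% of the 806066 autosomal regions with 4 values, in a table of 849172 regions in all, and cover 36.9 Mb, which is 1.57% of the length of those autosomal regions. Of the 2078, 299 are longer than 20 kb and 1779 measure 10 to 20 kb. A gene is named in the table's Feature column for 640 of them, and the other 1438 have no entry there. The median length was 11064.5 bp and the longest region measured 398773 bp.

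The libraries form 2 groups of 2. The libraries labelled Tet2+f_Camk2aCre (Cre libraries below) and those labelled Tet2+f (control libraries below) both come from CA1 tissue of C57B6/J mice aged 117 d, and both labels carry the +f allele of Tet2, read here as a floxed allele beside a wild-type one. Cre driven by Camk2a, a kinase gene active in excitatory neurons of the forebrain, is named for the first group alone, and the series text speaks of reduced Tet2 dose in glutamatergic cells. CA1 tissue holds glia and interneurons as well, so each level averages over cells with and without the recombinase, and a change in the mix of cells and a change within cells cannot be told apart. Nothing in the labels says that the libraries of a group come from separate mice, so p-values rest on a spread that may be technical. Methylation levels do not show whether Tet2 was deleted, and neither the genotype nor the tissue was checked from them.

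In mammals most DNA methylation sits on the cytosine of a CG pair, written CpG. Methylated CpGs mutate away over evolution, so most of the genome is CpG-poor and highly methylated, while the CpG-rich islands at many gene starts are kept unmethylated. TET2 oxidises 5-methylcytosine to 5-hydroxymethylcytosine, a form that is abundant in neurons and that bisulfite sequencing reads as methylated. A second property of long stretches matters for short reads: recently duplicated gene clusters, such as those of vomeronasal receptors, hold near-identical copies between which a read cannot be placed with certainty.

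CpG density and recurrence of sequence were countable at gene starts, using the 250 bases before each start in RefSeq (GRCm38.p6, the assembly behind mm10), for starts that lie wholly inside a region. Mean CpG density fell with region length up to 10 kb and was higher again above it. The mean was 10.3 CpG per 250 bases for 2489 starts in regions under 1 kb, 4.02 for regions of 1 to 2.5 kb, 2.001 for 2.5 to 5 kb and 1.05 for 5 to 10 kb. It was 2.11 for 169 starts in regions of 10 to 20 kb and 4.14 for 180 starts in regions over 20 kb. The medians moved less, at 1 CpG for regions of 5 to 10 kb, 1 for 10 to 20 kb and 2 over 20 kb. The higher means came with a minority of CpG-rich starts: 10 or more CpG were held by 6 of the 169 starts at 10 to 20 kb and 19 of the 180 over 20 kb. Most starts in long regions were thus CpG-poor and some were not, and the regions are called by their length here. Starts are few and are not a sample of a region's whole length. The share of starts whose last 150 bases recur elsewhere among RefSeq starts, on either strand, was 5.82% for regions of 5 to 10 kb, 43.8% for 10 to 20 kb and 73.3% over 20 kb, and at most 1.31% in each class below 5 kb.

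**Figure D1:**
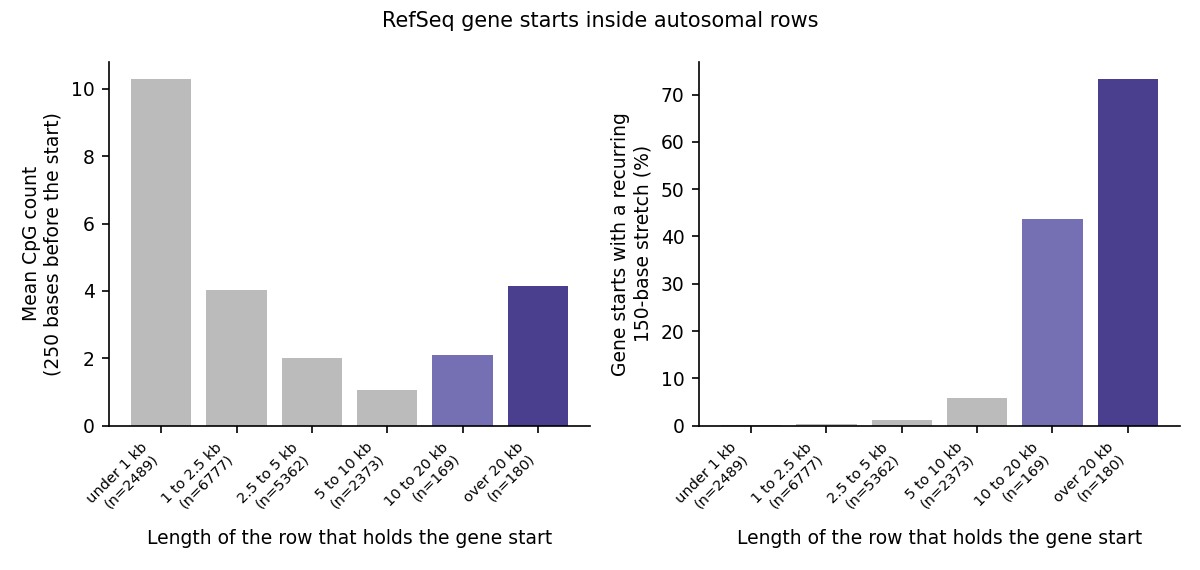
Left, mean number of CpG in the 250 bases before RefSeq gene starts, and right, percent of those starts whose last 150 bases occur at another RefSeq start, by the length of the region that holds the start (n, number of starts). Mean CpG density is lowest at 1.05 in regions of 5 to 10 kb and stands at 4.14 over 20 kb, where 73.3% of starts recur.

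The 6 windows printed here, each with every CG in capitals, show copied starts that differ little or not at all and CpG-rich starts in long regions. The first pair lies before the olfactory receptor genes Olfr1506 (chr2:90224472-90224721, minus strand) and Olfr1565 (chr2:90321972-90322221, plus strand), and all 250 bases are the same. The second pair lies before the vomeronasal receptor genes Vmn1r135 (chr7:21832101-21832350, plus strand) and Vmn1r137 (chr7:21994337-21994586, plus strand), which share 248 of 250 bases and hold 1 and 2 CpG. The last windows lie before Srp54c (chr12:55230127-55230376, plus strand), a copy of the gene for a signal recognition particle subunit, with 17 CpG, and before Ccl21b (chr4:42172870-42173119, plus strand), a chemokine gene, with 37 CpG.
Olfr1506: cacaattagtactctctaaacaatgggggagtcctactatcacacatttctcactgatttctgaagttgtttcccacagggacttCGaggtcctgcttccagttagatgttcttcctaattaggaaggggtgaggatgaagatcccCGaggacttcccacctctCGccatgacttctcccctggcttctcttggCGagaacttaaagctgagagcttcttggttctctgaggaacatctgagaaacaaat
Olfr1565: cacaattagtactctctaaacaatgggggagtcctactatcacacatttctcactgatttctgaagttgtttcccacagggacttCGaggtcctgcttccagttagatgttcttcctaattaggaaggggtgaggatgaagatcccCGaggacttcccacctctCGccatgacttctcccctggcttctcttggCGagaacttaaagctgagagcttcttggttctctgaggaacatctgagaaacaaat
Vmn1r135: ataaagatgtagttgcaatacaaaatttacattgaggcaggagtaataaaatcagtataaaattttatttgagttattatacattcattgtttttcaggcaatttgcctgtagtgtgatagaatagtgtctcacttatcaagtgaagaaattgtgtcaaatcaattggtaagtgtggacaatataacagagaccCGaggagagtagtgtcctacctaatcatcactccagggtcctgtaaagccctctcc
Vmn1r137: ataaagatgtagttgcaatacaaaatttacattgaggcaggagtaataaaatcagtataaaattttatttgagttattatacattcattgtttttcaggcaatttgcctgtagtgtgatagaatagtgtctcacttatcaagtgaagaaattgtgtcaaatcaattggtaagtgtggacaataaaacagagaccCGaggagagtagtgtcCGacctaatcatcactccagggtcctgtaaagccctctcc
Srp54c: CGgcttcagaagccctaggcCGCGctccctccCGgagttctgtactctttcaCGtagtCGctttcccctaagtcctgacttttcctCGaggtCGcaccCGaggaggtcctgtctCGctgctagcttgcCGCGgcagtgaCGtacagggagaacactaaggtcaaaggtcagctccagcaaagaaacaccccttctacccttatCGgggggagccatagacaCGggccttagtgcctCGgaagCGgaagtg
Ccl21b: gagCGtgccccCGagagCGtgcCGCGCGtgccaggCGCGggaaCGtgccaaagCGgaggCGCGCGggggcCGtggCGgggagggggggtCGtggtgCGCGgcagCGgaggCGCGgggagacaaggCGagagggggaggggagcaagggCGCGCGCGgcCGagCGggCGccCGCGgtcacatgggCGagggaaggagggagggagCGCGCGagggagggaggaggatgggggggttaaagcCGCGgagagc

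The 6 starts lie in long regions of very different level. The region of Olfr1506 averaged 70.9% over the 4 libraries and that of Olfr1565 77.9%. The region of Vmn1r135 averaged 68.0% and that of Vmn1r137 81.3%. The region of Srp54c had the lowest level of all long regions, 14.6%, while the region of Ccl21b, with more CpG in its window, stood at 92.3%. Of the 349 starts in long regions, 25 in 17 regions held 10 or more CpG, and the median level of those 17 regions was 73.9%. A region's level is not that of the start inside it, which was not measured on its own.

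Long regions that hold a recurring start varied most between libraries. The spread used here is the SD of the 2 libraries of a group, pooled over both groups for each region, and its median over regions is given without a test. It was 4.65 percentage points in the 133 regions with a recurring start, 3.65 points in the 108 whose starts do not recur and 2.56 points in the 1837 with no start inside. Length moves with this, since 66 of the 133 regions with a recurring start, 22 of the 108 and 211 of the 1837 were over 20 kb. A range of 20 points or more over the 4 libraries occurred in 34 of the 133, 11 of the 108 and 81 of the 1837. The part that read placement has in these values was not tested.

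The mean level of the long regions was similar in both groups, and the ranges of the libraries overlap. Over all 2078 regions the mean level was 78.8% and 78.3% in the Cre libraries and 78.7% and 79.0% in the control libraries. The first Cre library lies between the control libraries. The group means were 78.6% ± 0.320 and 78.9% ± 0.163 (SD, n = 2 each), a difference of -0.296 points (exact permutation test over the 4 libraries, two-sided, p = 0.667, where 0.333 is the smallest p that 2 against 2 can give). Without the second Cre library the difference was -0.0690 points.

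None of the long regions was called different between Cre and control libraries. In a limma fit of logit levels, computed and adjusted by Benjamini-Hochberg over all 849014 regions with 4 values, 0 of 2078 had an adjusted p under 0.05, as did 0% of the whole table, with 0.937 as the lowest adjusted p. Unadjusted p-values under 0.05 came from 107 long regions, 5.15% against 4.6% of the whole table, with 49 higher in the Cre libraries (2.25% of the table higher) and 58 lower (2.35% of the table lower). The length classes differed in this share: 36 of 299 regions over 20 kb, or 12.04%, against 71 of 1779 regions of 10 to 20 kb, or 3.99%. The fit draws the variance of every region toward 1 common value, set mostly by short regions. The median SD within groups was 4.46 points over 20 kb and 2.16 points over the whole table. The part that this has in the share was not tested. The Cre libraries both exceeded the 2 control libraries in 300 long regions, 14.4% against 15.9% of the table, and below both in 374, 18.0% against 16.8%. Of the 299 regions over 20 kb, 42 lay apart upward, or 14.05%, and 52 downward, or 17.39%. These shares stand beside the same 15.9% and 16.8% of the table.

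Large differences were more frequent over 20 kb than at 10 to 20 kb, in both directions. A group difference of 10 points or more, in either direction, occurred in 54 regions over 20 kb, or 18.1%, in 50 regions of 10 to 20 kb, or 2.81%, and in 0.735% of shorter autosomal regions. Over 20 kb the differences between the 5th and 95th percentile ran from -14.2 to 14.2 points, and at 10 to 20 kb from -6.17 to 5.81 points. The median size of a difference did not go on growing: it was 4.67 points at 30 to 50 kb, 3.28 at 50 to 100 kb and 2.45 at 100 kb or more. The root mean square of the group difference was 8.61 points over 20 kb, beside a root mean square SD within groups of 7.88 points, and the 2 quantities are equal on average where groups differ no more than replicates do. At 10 to 20 kb they were 4.09 and 3.97 points.

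**Figure D2:**
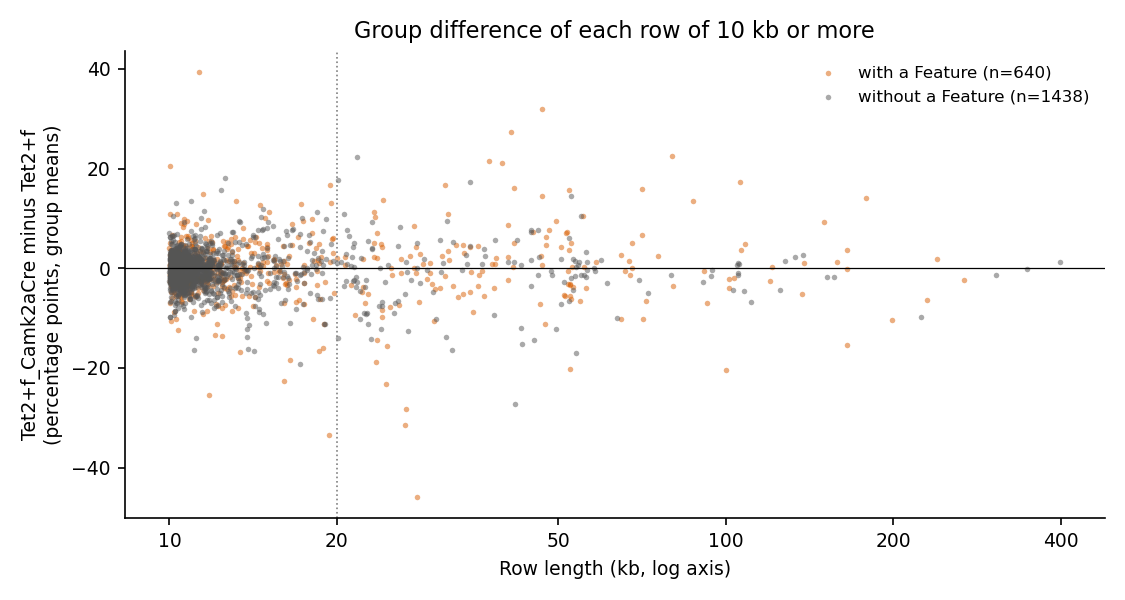
Difference in methylation level between the mean of the 2 Tet2+f_Camk2aCre libraries and the mean of the 2 Tet2+f libraries (percentage points) for each of the 2078 long regions against its length (kb, log axis), with regions that have a Feature in orange and those without in grey. The points already fan out below 20 kb (dotted line), on both sides of 0, and the lowest lies at -45.8 points. From the 5th to the 95th percentile they run from -5.04 to 4.58 points at 10 to 12 kb and from -11.2 to 9.71 points at 15 to 20 kb.

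Regions over 20 kb were less methylated than those of 10 to 20 kb in every library. The means over 20 kb were 76.8% and 76.1% in the Cre libraries and 76.9% and 77.2% in the control libraries. At 10 to 20 kb they were 79.1% and 78.7% in the Cre libraries and 79.1% and 79.3% in the control libraries. The difference was -2.29 and -2.63 points in the Cre libraries and -2.15 and -2.13 points in the control libraries, on average -2.30 ± 0.231 points (SD, n = 4). The sign was the same in all 4 libraries, and an exact two-sided sign-flip permutation test over them gave p = 0.125, the smallest p that 4 libraries can give (0.25 after Benjamini-Hochberg adjustment over the 6 level tests of this kind). Between the groups this contrast differed by -0.322 points, and both Cre libraries lie below both control libraries. The exact permutation p was 0.333, the smallest that 2 against 2 can give, so the design cannot show a difference here. The sign turned to 0.796 points with the limit at 30 kb.

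The step in level came mainly between 10 and 20 kb. In the Cre and the control group, regions of 10 to 12 kb averaged 79.6% and 79.8%, those of 12 to 15 kb 77.3% and 77.9%, and those of 15 to 20 kb 75.7% and 76.0%. Among longer regions there was no such order. Regions of 20 to 30 kb averaged 74.4% in the Cre group and 76.8% in the control group, a difference of -2.39 points, while those of 30 to 50 kb averaged 78.6% and 77.0%, a difference of 1.62 points (exact permutation p = 0.333 for each). With regions under 12 kb left out, the contrast of over 20 kb with the remainder was -0.256 points.

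**Figure D3:**
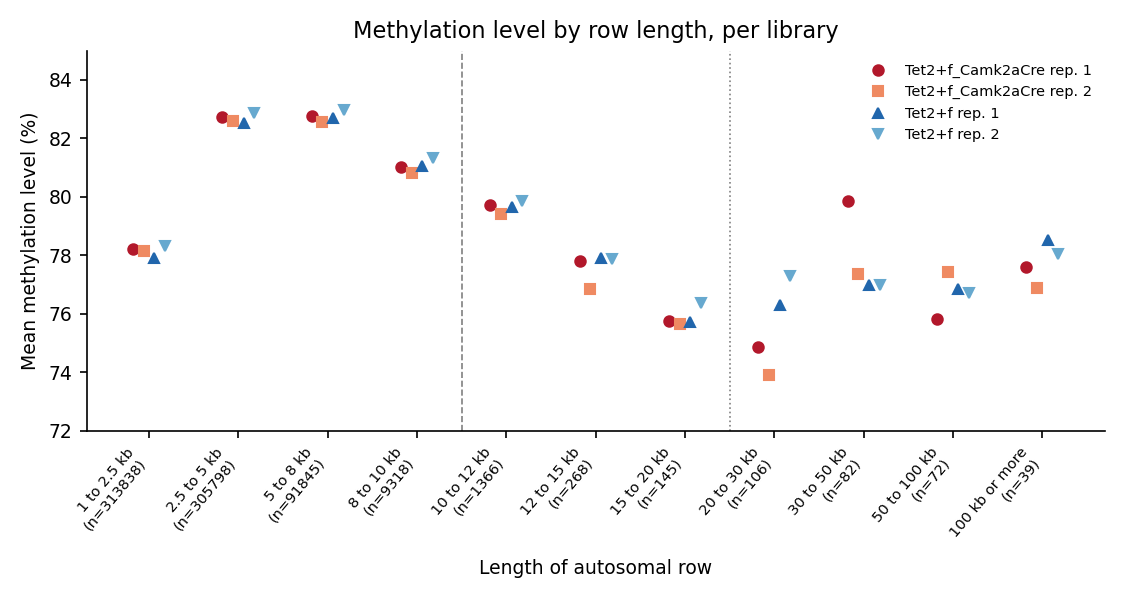
Mean methylation level (%) of autosomal regions by length for each library, with the 2 Tet2+f_Camk2aCre libraries to the left of the 2 Tet2+f libraries in each bin (n, number of regions; dashed line at 10 kb, dotted line at 20 kb). Regions under 1 kb, with means near 33%, are left out. Levels peak between 2.5 and 8 kb, fall to about 76% at 15 to 20 kb, and differ most between libraries from 20 to 50 kb.

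The spread between libraries was larger over 20 kb than at 10 to 20 kb in both groups. Its median was 4.46 points against 2.51 points, a ratio of 1.78. Taken within one group, the median SD was 4.15 points over 20 kb against 2.01 points at 10 to 20 kb in the Cre libraries, and 3.67 against 2.08 points in the control libraries. Within 5-point bins of level it was 4.51 against 2.82 points. A range of 20 points or more over the 4 libraries occurred in 75 regions over 20 kb, or 25.1%, against 51 of 10 to 20 kb, or 2.87%, and in 0.571% of shorter autosomal regions. The correlation of the 2 Cre libraries across regions, as a description, was 0.495 over 20 kb (n = 299) and 0.736 at 10 to 20 kb (n = 1779), and that of the control libraries 0.595 and 0.773. Regions share each library and its depth.

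The spread did not go on growing with length. By bin it was 2.30 points at 10 to 12 kb, 3.31 at 12 to 15 kb, 4.80 at 15 to 20 kb, 4.93 at 20 to 30 kb and 5.51 at 30 to 50 kb, then 3.94 at 50 to 100 kb and 3.30 in the 39 regions of 100 kb or more. It stood at 2.07 points at 8 to 10 kb. With regions under 12 kb left out, the excess over 20 kb was 0.623 points in place of 1.95, and with regions of 50 kb or more left out it was 2.51. The table gives no read counts, so the depth behind these levels is unknown and no counting interval is given. Some extreme regions have levels that few reads could give. The region of Srp54c was at 25% and 20% in the Cre libraries and 0% and 13.3% in the control libraries. Whether few reads lie behind such levels was not tested. Exact levels of 0% or 100% in at least 1 library occurred in 9 regions over 20 kb and 6 of 10 to 20 kb, and the excess was 1.79 points without them.

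**Figure D4:**
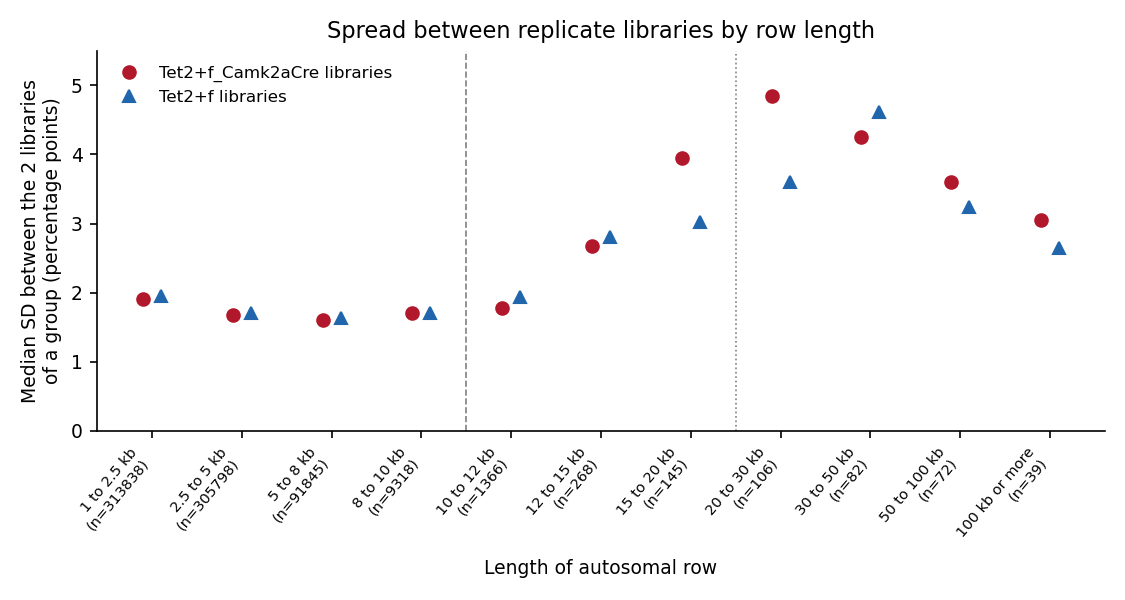
Median SD between the 2 libraries of a group (percentage points) by region length, for the Tet2+f_Camk2aCre libraries (circles, left) and the Tet2+f libraries (triangles, right), with n regions per bin, a dashed line at 10 kb and a dotted line at 20 kb. Both groups stay below 2 points up to 12 kb and reach their highest values, 4.84 and 4.61 points, between 20 and 50 kb.

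Set beside the shorter autosomal regions, the order of the levels depended on the summary. Long regions were 2.97 points higher by the mean, with all 4 libraries alike (78.8% and 78.3% against 75.8% and 75.7% in the Cre libraries, 78.7% and 79.0% against 75.6% and 75.9% in the control libraries, exact sign-flip p = 0.125, adjusted p = 0.25 over 6 tests). By the median the difference was -3.48 points, and with regions weighted by length -3.02 points. Low levels were rare among long regions: 14, or 0.674%, had a level under 50%, against 10.2% of shorter regions. The upper end differed as well, with 2.12% of long regions at 90% or more against 17.6% of shorter ones. Against regions of 5 to 10 kb alone, long regions were 3.88 points lower, in all 4 libraries. Their spread was 2.67 points, against 2.13 in shorter regions and 2.01 in those of 5 to 10 kb.

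Regions with a Feature were less methylated than those without, by -1.85 ± 0.157 points (SD, n = 4 libraries, the same sign in all 4, exact sign-flip p = 0.125, adjusted p = 0.25 over 6 tests). With a Feature the means were 77.6% and 77.2% in the Cre libraries and 77.4% and 77.6% in the control libraries, and without one 79.3% and 78.9% in the Cre libraries and 79.4% and 79.6% in the control libraries. The spread was 3.20 points with a Feature and 2.53 points without, a ratio of 1.26. By library the contrast was -1.79 and -1.65 points in the Cre libraries and -1.97 and -1.98 points in the control libraries, so the groups do not overlap in it. The difference of 0.255 points had an exact permutation p of 0.333, again the smallest possible, and its sign turned to -0.0517 points with the minimum length at 8 kb.

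The Feature contrast was found at genes of clustered families and at predicted genes. In the 343 regions whose Feature is of either kind, the level was 3.53 points lower than without a Feature and the spread 1.15 points larger. In the remaining 297 regions the level was 0.0975 points higher, with libraries on both sides of 0, and the spread 0.0546 points larger. Predicted genes made up 31.4% of the Features of long regions (47.1% over 20 kb), against 4.20% in shorter regions. Among regions over 20 kb the Feature contrast had no common sign. It was 0.741 and 0.326 points in the Cre libraries and -0.209 and -0.918 points in the control libraries, against -1.91 points on average at 10 to 20 kb.

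The Feature column was a partial guide to genes in long regions. It was filled for 51.2% of regions over 20 kb and 27.4% of those of 10 to 20 kb, and for 51.2% of shorter regions. Of the 529 long regions whose Feature is a symbol in the RefSeq gene table, 465, or 87.9%, overlapped that gene, against 96.9% of shorter ones. Of the 1438 without a Feature, 339, or 23.6%, overlapped a RefSeq gene all the same, and these were 2.75 points lower than the other 1099 and had a spread of 3.55 points against 2.35. With RefSeq overlap in place of the Feature entry, chosen after the data were seen, the level contrast was -2.57 points and that of the spread 0.915 points.

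A minority of the long regions was gathered in few places. Of 763 windows of 1 Mb that hold any, 93 hold 5 or more, and these contain 860 long regions, or 41.4% of all, and 65.6% of those over 20 kb. In the crowded windows the mean level was 76.4% and 75.8% in the Cre libraries and 76.5% and 76.6% in the control libraries, and in the other windows 80.5% and 80.2% in the Cre libraries and 80.4% and 80.7% in the control libraries. The spread was 3.65 points in the crowded windows and 2.30 points elsewhere. Another long region stood directly before or after 63.2% of regions over 20 kb in the table, against 20.7% of those of 10 to 20 kb. Chromosome 7 held 295, or 6.21 per 1000 regions, with the lowest mean level of any autosome, 73.5%, and chromosome 14 held 203, or 5.57 per 1000. Chromosome 19 held 20, or 0.898 per 1000.

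Of the 10 most crowded windows some lie over gene clusters and others hold few coding genes. Windows with 32 long regions each lay on chromosome 14 between 5126263 and 5829327 with predicted coding genes such as Gm3194 and Gm3383, and on chromosome 5 between 94016817 and 95007793 with Pramel genes, relatives of the tumour antigen gene PRAME. A window on chromosome 7 between 22051500 and 22999146 held 31 and 22 coding genes, most of them of the Vmn1r family. Its level was 72.3% and 69.6% in the Cre libraries and 73.5% and 73.6% in the control libraries. The largest spread among the 10 most crowded windows, 8.71 points, lay next to it, between 21436475 and 22051499, where the level was 75.5% and 70.8% in the Cre libraries and 73.7% and 71.1% in the control libraries. In that window the control libraries fall inside the range of the Cre libraries. By contrast, a window on chromosome 4 between 122058356 and 122518776 held 17 long regions with 1 coding gene and 0 Features. One on chromosome 5 between 11005274 and 11869810 held 28, of which 10 had a Feature, with 2 coding genes among 22 genes in all.

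Neighbouring sequence was more methylated than the long regions of 10 to 20 kb. Of the 2078, 1515 have a shorter region on each side. There the long region was lower than the mean of its neighbours by 2.17 and 2.20 points in the Cre libraries and 1.99 and 2.09 points in the control libraries at 10 to 20 kb (n = 1409 regions, exact sign-flip p = 0.125). Over 20 kb (n = 106) the difference had no common sign, with -0.0570 and -0.0864 points in the Cre libraries and 1.34 and 0.617 points in the control libraries. The spread over 20 kb was 3.45 points in the long regions and 2.73 points in their neighbours, while at 10 to 20 kb both were 2.28 points. For the neighbours each value is the mean spread of the 2 flanking regions, so it is not the same measure as that of a single long region.

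Of the gene lists counted, vomeronasal receptors had the most long regions. Vomeronasal receptors, which detect pheromones in the vomeronasal organ, had 124 of 645 genes at a long region. These were 118 regions, or 74.0 per 1000 of all autosomal regions at such genes, and 28 of them were over 20 kb. Their level was 72.1% and 72.4% in the Cre libraries and 72.4% and 72.6% in the control libraries, and their median spread was 4.06 points, against 2.20 points in shorter regions at the same genes. The type 1 genes (Vmn1r, 55 regions) had a median level of 72.5% and a spread of 4.65 points, and the type 2 genes (Vmn2r, 63 regions) 73.1% and 3.14 points. Of the 118 regions 58 were higher and 60 lower in the Cre libraries, with a median difference of -0.317 points against -0.194 over all long regions, 0 passed the adjusted threshold, and 8 had an unadjusted p under 0.05, beside 5.15% of all long regions and 4.6% of the table.

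Olfactory receptors, the odorant receptors of the nose and the largest family counted, had 49 of 1428 genes at a long region. These were 47 regions, or 24.0 per 1000, 3 of them over 20 kb, with a median level of 76.5% and a spread of 2.24 points, against 2.13 points in shorter regions at the same genes. Of the 47, 24 were higher and 23 lower in the Cre libraries, where 47.5% of all long regions were higher. Of them 0 passed the threshold, and 3 had an unadjusted p under 0.05, beside the same 5.15% and 4.6%. The longest was that of Olfr1565, whose start is printed above, at 88.2% and 83.9% in the Cre libraries and 61.1% and 78.5% in the control libraries. The Cre libraries are the higher ones there, and the region did not pass (limma adjusted p = 0.937).

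The other clustered families gave 80 regions at 71 of 1168 genes, 29 of them over 20 kb, with a median level of 76.1% and a spread of 3.69 points. Of these, 44 were higher and 36 lower in the Cre libraries, beside 47.5% higher over all long regions, 0 passed the threshold, and 8 had an unadjusted p under 0.05, beside 5.15% of long regions and 4.6% of the table. Zinc-finger genes of the Zfp series, most of which encode DNA-binding repressors, gave 21 regions with a median of 75.4% and a range from 54.0% to 97.6%. The major urinary protein genes (Mup), which encode carriers of volatile scents, gave 13 regions with a median of 76.2% and none over 20 kb. The 5 regions at Ccl21 genes, which encode a chemokine that guides immune cells to lymph nodes, were all over 20 kb and had a median of 84.0%. Secretoglobin genes (Scgb), which encode small secreted proteins, gave 7 regions with a median of 76.1%, and amylase genes (Amy) 5 with a median of 85.3% and a spread of 5.34 points.

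Long regions in neuronal gene lists had median levels of 83.3% to 87.9%, beside 79.97% over all long regions, and 1 of them was over 20 kb. The list of long adhesion genes had 11 of 56 genes at 30 long regions, or 2.46 per 1000, with a median level of 83.3% and a spread of 2.14 points, against 2.01 points in shorter regions at the same genes. Cntnap2, a neurexin-like adhesion molecule at axons, held 6 of them, at 80.7% to 89.1%, including the one over 20 kb. That region of 33795 bp stood at 83.5% and 80.9% in the Cre libraries and 81.3% and 77.1% in the control libraries. Cntnap5b held 5 with a mean of 83.4%, and Ptprd, a receptor phosphatase of synapse formation, held 4 with a mean of 81.5%. Of the 30 regions 12 were higher and 18 lower in the Cre libraries, beside 47.5% higher over all long regions. Their median difference was -0.508 points, against -0.194 over all long regions. Of them 0 passed the threshold and 0 had an unadjusted p under 0.05, beside 5.15% of all long regions and 4.6% of the table.

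Genes of glutamate receptors and synapses gave 8 long regions at 8 of 48 genes, all under 20 kb, with a median level of 85.7%. Grm5, a metabotropic glutamate receptor, was at 88.9% and 87.7% in the Cre libraries and 87.3% and 88.8% in the control libraries. Grik2, a kainate receptor subunit, was at 88.3% and 87.9% in the Cre libraries and 89.2% and 88.9% in the control libraries. The difference was -0.98 points. Both Cre libraries lay below both control ones there and at Grin3a, and above both at Magi2. Over all long regions 18.0% lay below both and 14.4% above both, beside 16.8% and 15.9% of the table. Magi2, a synaptic scaffold, was at 82.3% and 84.3% in the Cre libraries and 81.6% and 82.3% in the control libraries. Dlg2, which encodes the scaffold PSD-93, had the lowest level of the 8, 77.6%. Ion channel genes gave 7 long regions at 5 of 52 genes, from 72.9% at Ano3 to 89.5% at Kcnt2, a sodium-activated potassium channel. Nalcn, the sodium leak channel, held 2 of them, and its longer one was at 88.8% and 86.0% in the Cre libraries and 88.4% and 88.3% in the control libraries. The markers of other cells of the tissue gave 0 long regions at 18 astrocyte, 20 microglia and 24 interneuron genes, beside 848, 174 and 1111 shorter ones, and 1 at the 20 oligodendrocyte lineage genes, at Lhfpl3, beside 525 shorter ones. With 0.258% of all autosomal regions being long, such numbers are too small to set these lists apart. None of these lists had a region past the limma threshold or at an unadjusted p under 0.05. The latter share was 5.15% of all long regions and 4.6% of the table, so lists this small would often hold none.

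The 3 longest regions overlap no RefSeq gene and stood near 80%, and the next 3 span several genes and were lower. The region of 398773 bp on chromosome 5 (15061541 to 15460313) was at 81.7% and 83.5% in the Cre libraries and 82.5% and 80.4% in the control libraries. Those of 347307 bp on chromosome 10 (57858926 to 58206232) and 306045 bp on chromosome 4 (60849333 to 61155377, with Mup22 the nearest coding gene) had means of 80.8% and 81.8%. The region of 267457 bp on chromosome 14 (26011487 to 26278943) spans 12 genes, among them the homeobox genes Cphx2, Cphx3, Duxbl2 and Duxbl3, and stood at 79.8% and 52.6% in the Cre libraries and 61.7% and 75.6% in the control libraries, so each group covers the other's mean. The region of 239717 bp over Zfp966 on chromosome 2 was at 69.0% and 68.8% in the Cre libraries and 65.4% and 68.8% in the control libraries. The region of 229437 bp over Entpd4b and Loxl2 on chromosome 14 was at 33.6% and 48.7% in the Cre libraries and 45.1% and 50% in the control libraries.

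The 5 lowest long regions all overlap genes, and their mean levels ran from 14.6% to 32.2%. The lowest, on chromosome 12 (55160107 to 55230667, 70561 bp), spans Srp54b, Srp54c and Fam177a2 and was at 25% and 20% in the Cre libraries and 0% and 13.3% in the control libraries. The first 41 bases of the window printed for Srp54c are the last 41 of the corresponding window of Srp54b. The start of Srp54b lies in the region before, with 26 CpG in its window, and that region averaged 83.9%. The next lowest, on chromosome 13 (21832087 to 21845270), holds the histone genes H2ac24, H4bc24 and H4c18, which encode core proteins of the nucleosome, and was at 32% and 20% in the Cre libraries and 3.85% and 21.1% in the control libraries. The Cre libraries lay above the control libraries in the Srp54c region, and the groups overlap in the histone region. The others were over Gm10409 (25.7%), Gm21188 (27.8%), and Gm16434 with Gm3512 (32.2%).

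The highest 5 levels were 97.6% at Zfp960 on chromosome 17, 96.5% at Anxa11, which encodes a calcium-dependent membrane-binding protein, with Plac9a on chromosome 14, 94.9% at Depdc1a on chromosome 3, 94.9% at Atp6v0a2, a subunit of the vacuolar proton pump, on chromosome 5, and 94.2% in a region 522 bp from Zfp960. Their agreement between libraries varied. Zfp960 was at 97.7% and 95.02% in the Cre libraries and 99.2% and 98.6% in the control libraries, and Depdc1a at 95.3% and 95.7% in the Cre libraries and 94.5% and 94.1% in the control libraries. The region near Zfp960 was at 96.7% and 91.04% in the Cre libraries and 94.7% and 94.5% in the control libraries.

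Of the 5 largest differences between the 2 libraries of one group, 4 were in regions over genes known by a Gm symbol, which the mouse nomenclature gives to predicted genes. The region of 26467 bp at Gm3194 on chromosome 14 was at 82.1% and 26.0% in the Cre libraries and 81.4% and 89.6% in the control libraries. The region of 19341 bp at Gm3020 on the same chromosome was at 24.3% and 80.1% in the Cre libraries and 84.7% and 86.7% in the control libraries. The low library is the second Cre library at one and the first at the other. The region at Gm40363 on chromosome 6 was at 71.98% and 76.6% in the Cre libraries and 37.0% and 82.8% in the control libraries. The other 2, on chromosome 13 (119979854 to 120000450) and at Gm3512 on chromosome 14, also differed within the Cre group. The first was at 75% and 28.6% in the Cre libraries and 40.2% and 41.4% in the control libraries, and the second at 96.7% and 51.9% in the Cre libraries and 47.3% and 90.02% in the control libraries, a wide gap in both groups.

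Among the long regions with the smallest unadjusted p, none of which passed the adjusted threshold (limma adjusted p = 0.937 for each of the 10), those higher in the Cre libraries were led by a region of 46744 bp at Gm10302 on chromosome 7 (9530774 to 9577517), at 88.9% and 87.5% in the Cre libraries and 74.0% and 73.3% in the control libraries. The region of 46774 bp over Vmn1r135 and Vmn1r249 (chromosome 7, 21814584 to 21861357) was at 87.9% and 80% in the Cre libraries and 50% and 54.2% in the control libraries, a difference of 31.9 points. Another region of the same cluster, over Vmn1r137 and Vmn1r138, whose printed window differs from that of Vmn1r135 by 2 bases, was at 82.2% and 80% in the Cre libraries and 86.4% and 76.8% in the control libraries, so the groups overlap there. The region over Olfr1506 was at 83.3% and 79.5% in the Cre libraries and 63.6% and 57.1% in the control libraries, a difference of 21.0 points. A region in the T cell receptor alpha locus on chromosome 14, at Trav9d-4, was at 86.8% and 87.0% in the Cre libraries and 76.1% and 75.8% in the control libraries. A region of 87159 bp over Ccl21d on chromosome 4 was at 93.5% and 91.0% in the Cre libraries and 81.8% and 75.6% in the control libraries.

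Among those lower in the Cre libraries, the region of 164798 bp over Ccl21b on chromosome 4 (42030003 to 42194800) was at 82.4% and 86.7% in the Cre libraries and 100% in both control libraries, with the smallest unadjusted p of all long regions, 1.62e-05. Both control values stand at the upper limit of the scale there, with an SD of 0, and the depth is unknown. The sign of the difference is opposite to that of the region over Ccl21d on the same chromosome. The largest difference, -45.8 points, was in a region of 27834 bp at Gm3050 on chromosome 14 (3782253 to 3810086), at 46.2% and 41.4% in the Cre libraries and 85% and 94.2% in the control libraries. A region of 100044 bp over Gm2007 and Gm4724 on chromosome 2 was at 57.1% and 53.8% in the Cre libraries and 76.9% and 75% in the control libraries. A region on chromosome 5 (95037037 to 95054226), with Pramel45 the nearest coding gene, was at 73.1% and 66.7% in the Cre libraries and 87.5% and 90.6% in the control libraries, and one at 1700110I01Rik on chromosome 14 at 80.4% and 71.96% in the Cre libraries and 92.4% and 92.1% in the control libraries. In each of the 10, chosen for their p, the groups do not overlap. With groups that do not overlap, leaving out 1 library cannot turn the sign, so it is no check of these differences. Without 1 library they ran from -50.4 to -41.2 points at Gm3050 and from 27.9 to 35.8 points at Vmn1r135.

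**Figure D5:**
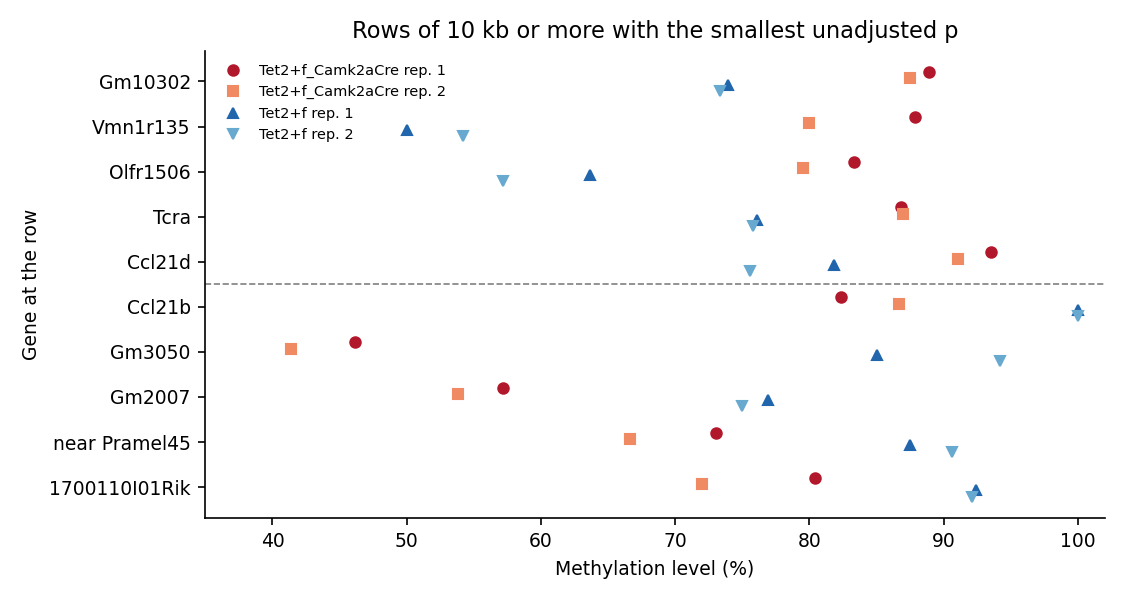
Methylation level (%) in each of the 4 libraries of the 10 long regions with the smallest unadjusted p, 5 higher in the Tet2+f_Camk2aCre libraries (above the dashed line) and 5 lower, named by gene. In each region the 2 red-toned points lie on one side of the 2 blue-toned ones. The differences of the group means run from 10.9 to 31.9 points above the line and from -15.5 to -45.8 points below it.

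The limits of length cut through a continuous range. The regions just inside 10000 bp, of 10001 bp on chromosome 9 and 10002 bp in Fgf14, had mean levels of 80.03% and 87.7%, and those just outside, of 9999 and 9998 bp, 82.8% and 73.0%. Just over 20000 bp, regions of 20017 and 20055 bp had mean levels of 93.9% and 85.8%, and just under it regions of 19991 and 19763 bp had 81.4% and 75.5%. One further autosomal region of this length, of 14827 bp on chromosome 7, lacked a value in the first control library and was left out. The long regions of the sex chromosomes, 806 on X and 2751 on Y, were not among the 2078, and with them included the Feature contrast was 0.236 points in place of -1.85.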

How the data were processed

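The series holds whole-genome bisulfite sequencing of 2 Tet2+f_Camk2aCre and 2 Tet2+f libraries. Per the labels' protocols, libraries were prepared after bisulfite conversion (Accel-NGS Methyl-Seq) and sequenced in pairs of 150 bp. Per the submitters' processing notes, Bismark 0.19.0, Trim Galore 0.4.5, FastQC 0.11.5 and edgeR were used with mm10, in roles not stated. The values the authors deposited are percent methylation per region, with no counts, so the depth is unknown and thinly covered regions count as much as others. How regions were drawn and reads filtered is not given in the sources used here.

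Libraries were assigned by title. Of 849172 regions, 849014 had 4 values. limma 3.58.1 (R 4.3.3) was fitted to all of these as the log2 ratio of methylated to unmethylated share, 0.01 added to each, and adjusted by Benjamini-Hochberg at 0.05. Single values were compared by exact permutation, and classes within libraries by exact sign flips. Spread was given without a test. Genes were joined with bedtools 2.31.1 to RefSeq (GRCm38.p6). On simulated levels the fit recovered the sizes of known changes but called none of them after adjustment. Those changes were set in autosomal regions of any length, within a band of mean levels that ended at 60%. Of the 2078 long regions 35 lie under 60%, and the lowest of these lie below the band. The simulation thus does not give the power for long regions. With 2 libraries per group, a lack of calls still says little about the groups. The members and gene lists were chosen with earlier results of these data known. Named regions are the 5 with the smallest p in each direction, the 6 longest, the 5 lowest, highest and least alike within a group, those next to the length limits, and the 2 longest of each list. Other regions, windows and genes were named after their values were seen. Alternatives were other length limits, summaries, transforms, a replicate block and leaving out each library.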

Additional observations from a re-analysis of the deposited data

How the results depend on the processing

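Every setting but one gave 0 long regions past the threshold, with a smallest adjusted p from 0.106 to 0.954. With the model refitted and adjusted on the long regions alone, 1 passed, the region over Ccl21b; this changes the variance prior and the number of tests at once. The labels do not say whether replicate numbers pair the libraries. Deviations of same-numbered libraries had a correlation of r = 0.00648 over all regions. This rests on differences of single regions and cannot decide whether libraries were paired. With the replicate block 0 long regions passed. In a balanced design the block cannot change the level difference, so its value of -0.296 points there is no check.

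Without 1 library, the difference in level between the groups ran from -0.522 to -0.0690 points. The spread then comes from the complete group alone, so leaving out a library only restates the values of each group. The excess spread over 20 kb was 2.14 points in the Cre libraries and 1.58 in the control libraries. With a Feature it was 0.655 and 0.813 points, and for long over shorter regions 0.508 and 0.536 points, in the same order. Fits without 1 library gave 0 regions. The level of long minus shorter regions, 2.97 points, reversed to -3.02 (weighted by length), -3.48 (median), -1.47 (X and Y included) and -3.88 points (against 5 to 10 kb). The level contrast for Feature reversed to 0.0975 points without clustered families and predicted genes and to 0.236 with X and Y. The group difference in that contrast was -0.0517 at a minimum of 8 kb, and that in the length contrast 0.796 at a limit of 30 kb. The cause of these reversals was not tested.

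The excess spread over 20 kb was 0.623 points at a minimum of 12 kb and 2.51 without regions of 50 kb or more. That with a Feature, 0.664 points, was 0.114 at a minimum of 8 kb, 0.345 at 12 kb, 0.542 without regions of 50 kb or more, 0.0546 without families and predicted genes, 0.472 within level bins, 0.915 by RefSeq overlap and 0.404 at 10 to 20 kb. That of long over shorter regions, 0.545 points, was 0.0361 at 8 kb, 1.93 at 12 kb, 0.501 without 50 kb or more, 0.410 without families, 0.369 within level bins, 0.467 without levels of 0 or 100, 0.664 against 5 to 10 kb and 0.381 for 10 to 20 kb alone. RefSeq overlap, the 5 to 10 kb reference and the restriction to 10 to 20 kb were chosen after seeing the data. With no counts, the part of depth in the spread was not analysed here.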
